A study of Saccharomyces cerevisiae with 18 samples.

Results

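The 10 genes described here encode the pathway by which budding yeast takes up sulfate, reduces it to sulfide and fixes the sulfide into an organic molecule. They were taken as listed: SUL1, SUL2, MET3, MET14, MET16, MET5, MET10, MET1, MET8 and MET17. Each gene was linked to every ATAC-seq peak lying within 500 bp of its annotated 5' end in build R64. Each had exactly 1 such peak, so 10 of the 2042 nuclear peaks outside the ribosomal DNA, and 10 of the 2664 genes with a linked peak, make up the set. The gene list and the linking rule use no measured value, but both were set with earlier results of these data known.

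The assay was ATAC-seq, which reads open chromatin from the places where a transposase can insert adapters. Saccharomyces cerevisiae from a fermenter was taken at 18 successive points of its metabolic cycle. In this cycle a synchronised culture alternates between a burst of respiration and reductive phases. By label, 5 libraries were Reductive Building (time points 11 to 15), 5 were Oxidative (time points 6 to 10) and 8 were Reductive Charging (time points 1 to 5 and 16 to 18). All came from formaldehyde-fixed cells treated to remove the cell wall before the nuclei met the transposase, and the strain is not given in the sources used here. With a single library for each time point, successive time points of a phase served as its replicates. All p-values thus reflect how much time points of one phase differ, and neighbouring time points are not independent.

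Sulfate assimilation starts with uptake by a permease, goes on with activation to adenylyl sulfate and its phosphorylated form, and continues with reduction to sulfite and then sulfide. Sulfite reductase needs siroheme, a modified tetrapyrrole, as its cofactor. Sulfide is then joined to O-acetylhomoserine to give homocysteine, the precursor of methionine and cysteine. The genes are known to be switched on together by the activator Met4, with the DNA-binding partners Cbf1, Met31 and Met32, when methionine and its derivatives run low. Hydrogen sulfide from this pathway has been described as a signal that synchronises respiratory oscillations in continuous yeast culture.

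Levels are given as nuclear CPM, the counts of a peak per 1000000 counts in nuclear peaks outside the ribosomal DNA. The library of time point 16 held the fewest nuclear counts, 9228, and that of time point 10 the most, 12477489. At time points 11, 13, 15, 16 and 18 between 229 and 1720 of the 2042 nuclear peaks had 0 counts, while the remaining 13 libraries had 42 or fewer and are called well covered here. Of the poorly covered libraries 3 are Reductive Building and 2 are Reductive Charging. Members at 0 numbered 8 at time point 15 and 9 at time point 16, where 3 counts correspond to 29.4 and 325 nuclear CPM. A value of 0 at those time points therefore limits the level of most members only loosely. The phases were compared in the 13 well-covered libraries (2 Reductive Building, 5 Oxidative, 6 Reductive Charging), and the result with all 18 is given beside each. Counting intervals and such floors cover counting error only.

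The linked peaks lay where promoters are found. Measured from the annotated 5' end, which is the start of the coding sequence, the peak centres lay at -510.5 (MET1) to -174.5 (MET8) bp, upstream in every case, with a median of -282 bp. The peaks of SUL2, MET14, MET5, MET10, MET8 and MET17 reached over the start itself. The peak of SUL1 ended 127 bp short of it, that of MET3 38 bp, that of MET16 68 bp and that of MET1 234 bp. Peak lengths ran from 305 bp (MET16) to 840 bp (SUL2). The peaks of 4 members were also within reach of a second coding gene, so their counts cannot be assigned to 1 gene. The MET16 peak lies between MET16 and NUT2, a Mediator subunit gene whose 5' end is 72 bp from the peak. The MET1 peak covers the 5' end of BET3, a vesicle-tethering complex gene, and is closer to it than to MET1. The MET17 peak covers the 5' end of YLR302C and overlaps a transfer RNA gene, and the SUL2 peak lies 481 bp from the 5' end of GEP5.

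**Figure D1:**
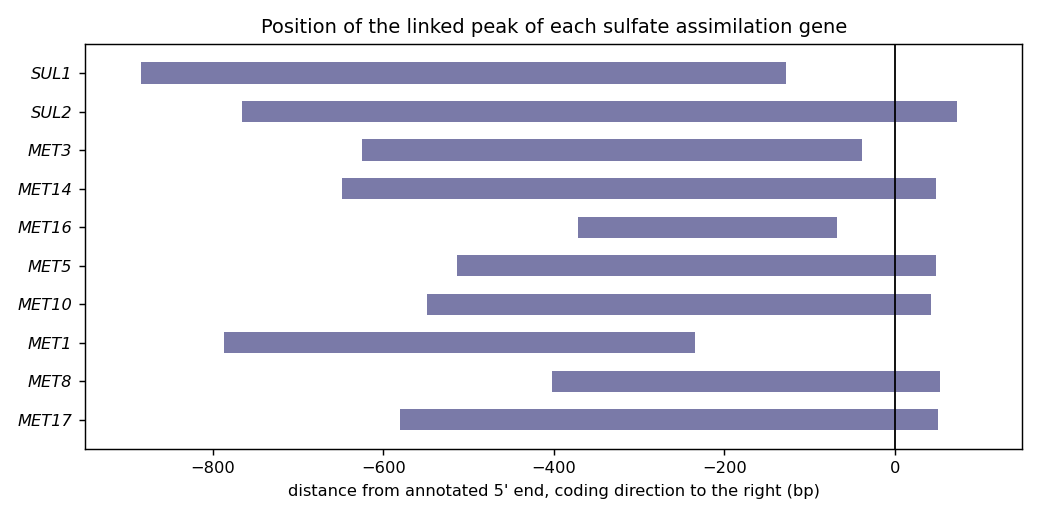
Extent of the linked peak of each member relative to its annotated 5' end (vertical line, in bp, coding direction to the right). Most of each peak lies upstream, and 6 of the 10 peaks reach over the 5' end.

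SUL1 and SUL2 encode the high-affinity sulfate permeases. SUL2 (chromosome XII, peak 322778 to 323617) had 1131 and 883 nuclear CPM in the Reductive Building libraries of time points 12 and 14. Its Oxidative libraries, time points 6 to 10, had 1331, 1127, 1343, 1174 and 1126 nuclear CPM. Its 6 well-covered Reductive Charging libraries ran from 764 through a median of 912 to 1093 nuclear CPM. Every Oxidative library thus lay above every well-covered Reductive Charging library, and the Reductive Building values spanned the gap between them. SUL2 was the 1 member of 10 that was separated in this way. Of all nuclear peaks, 2.2% were separated in the same direction and 1.76% in the opposite one.

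SUL2 had a log2 fold change of 0.44 ± 0.14 (SE) for Oxidative minus Reductive Charging, with a 95% interval of 0.15 to 0.72 for this peak alone, and it did not pass after adjustment over all peaks (edgeR quasi-likelihood test, adjusted p = 0.106). With all 18 libraries it had 0.56 ± 0.57 (edgeR, adjusted p = 0.998). Standard errors and intervals of fold changes were computed back from the edgeR F test, so they restate its unadjusted p. SUL1 (chromosome II, peak 788351 to 789108) had 429 and 272 nuclear CPM at the Reductive Building time points 12 and 14. In Oxidative libraries it had 358, 419, 182, 157 and 309.7 nuclear CPM, and in Reductive Charging libraries 136, 246 and 328 nuclear CPM as lowest, median and highest. The phases overlapped for SUL1, and time points 8 and 9 lay below the Reductive Charging median.

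MET3 encodes ATP sulfurylase, which activates sulfate, and MET14 encodes the kinase that phosphorylates the product. MET14 (chromosome XI, peak 439336 to 440034) had 969 and 491 nuclear CPM in the Reductive Building libraries of time points 12 and 14. It had 447, 379, 597, 301 and 818 nuclear CPM in Oxidative libraries, and 264, 377 and 442 nuclear CPM as lowest, median and highest of the Reductive Charging libraries. Both well-covered Reductive Building libraries lay above every well-covered Reductive Charging library, and 11.7% of all nuclear peaks were separated in that direction, with 7.05% in the opposite one. Of the poorly covered libraries, those of time points 11, 13 and 15 had 613, 354 and 538 nuclear CPM, so that of time point 13 fell inside the Reductive Charging range.

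MET14 had the lowest p among the members for Reductive Building minus Reductive Charging, with a log2 fold change of 1.02 ± 0.34 (SE; 95% interval 0.31 to 1.73), and did not pass the adjustment (edgeR, adjusted p = 0.184). Without time point 14 the value was 1.43 and passed (adjusted p = 0.0369), and time point 12 alone then stood for Reductive Building. Without time point 12 it was 0.45. With all 18 libraries it was 0.81 ± 0.51 (edgeR, adjusted p = 0.669).

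MET3 (chromosome X, peak 455614 to 456201) had 873 and 1229 nuclear CPM at the Reductive Building time points 12 and 14. Its Oxidative libraries had 479, 629, 936, 477 and 879.8 nuclear CPM, and its Reductive Charging libraries 424, 559 and 1118 nuclear CPM as lowest, median and highest. The highest Reductive Charging value came from time point 17, the 1 well-covered library of the late Reductive Charging samples, and lay above all 5 Oxidative values. The 5 early Reductive Charging libraries ran from 424 to 791 nuclear CPM. The highest MET3 level of all, 2207 nuclear CPM, stood in the poorly covered library of time point 13.

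**Figure D2:**
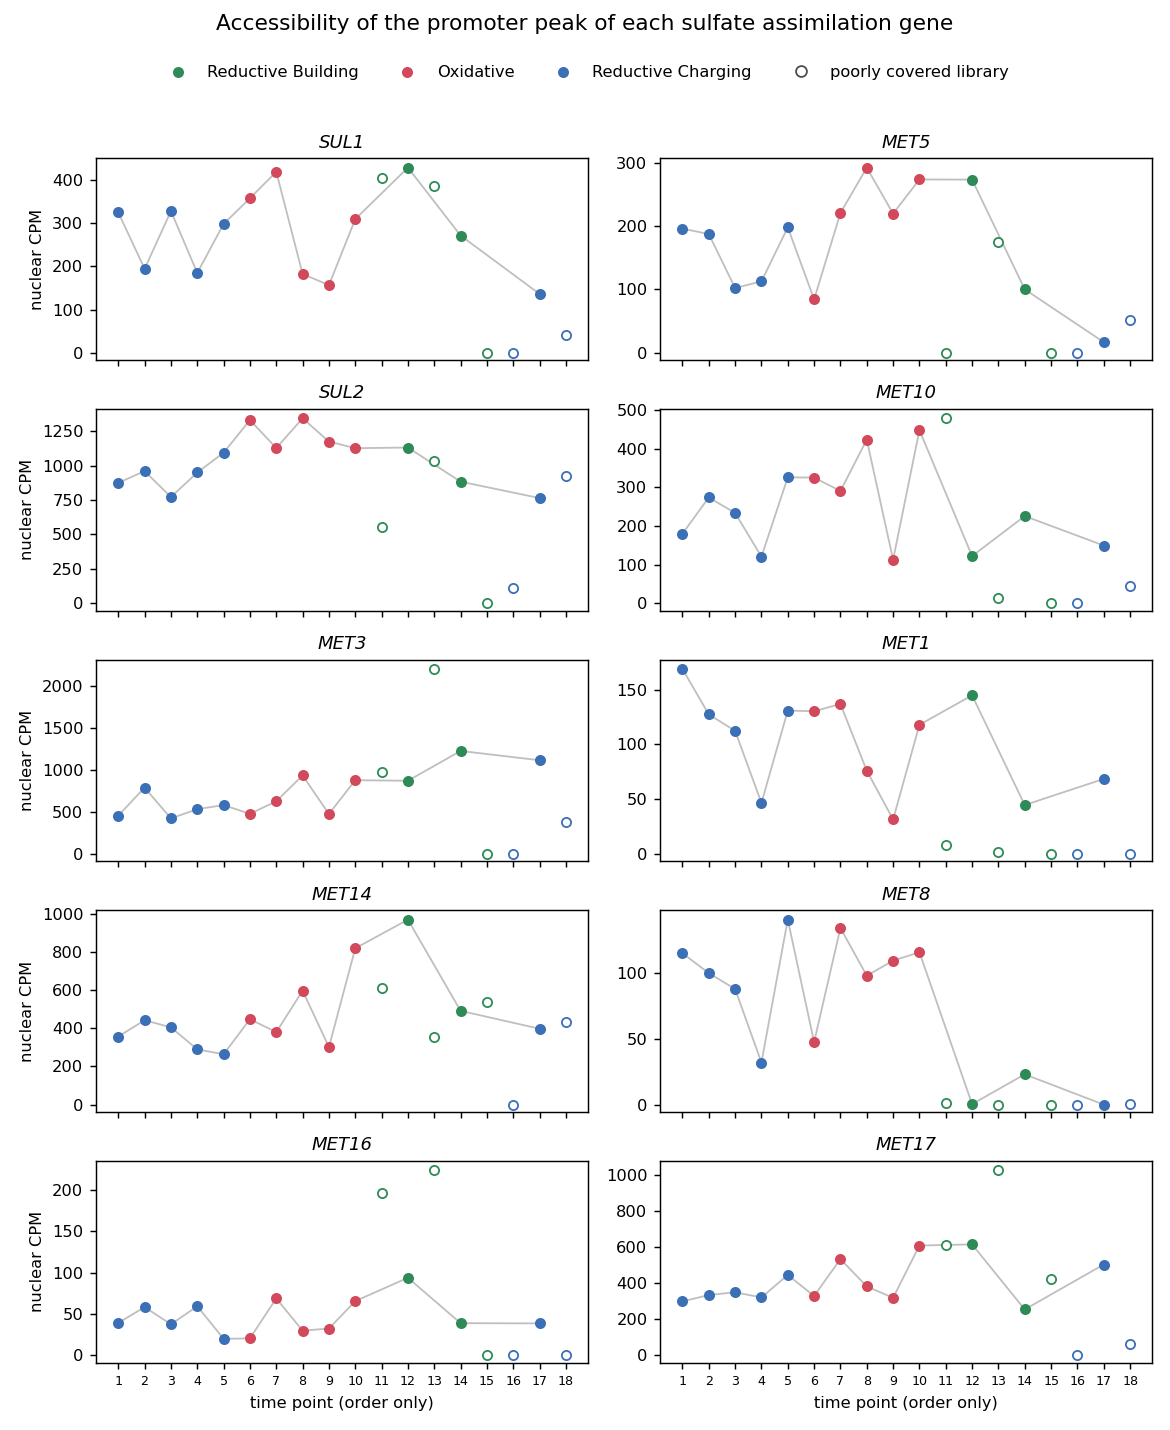
Level of each member's peak (nuclear CPM) at time points 1 to 18, filled for the 13 well-covered and open for the 5 poorly covered libraries, with the line joining the well-covered ones. SUL2 is higher in all Oxidative than in all well-covered Reductive Charging libraries, and MET8 is at 23.0 nuclear CPM or less at time points 11, 12, 13, 14, 17 and 18, while its 0 counts at time points 15 and 16 allow up to 29.4 and 325 nuclear CPM.

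The reduction steps are encoded by MET16, the reductase that makes sulfite, and by MET10 and MET5, the alpha and beta subunits of sulfite reductase. MET5 (chromosome X, peak 683237 to 683798) had 274 and 100.2 nuclear CPM at the Reductive Building time points 12 and 14. Its Oxidative libraries had 84.3, 221, 293, 220.0 and 274 nuclear CPM, and its Reductive Charging libraries 16.6, 150.2 and 198 nuclear CPM as lowest, median and highest. Of the Oxidative libraries, 4 lay above every Reductive Charging library, and time point 6, the first of that phase, lay below 5 of the 6. The log2 fold change for Oxidative minus Reductive Charging was 0.69 ± 0.49 (SE), with a 95% interval of -0.35 to 1.73 (edgeR, adjusted p = 0.545). Without time point 17 it was 0.45.

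MET10 (chromosome VI, peak 212763 to 213355) had 122 and 225 nuclear CPM at the Reductive Building time points 12 and 14. Its Oxidative libraries had 325, 290.3, 423, 113 and 447 nuclear CPM, against 120.4, 207 and 325 nuclear CPM as lowest, median and highest in Reductive Charging. Time point 9 held the lowest MET10 level of the 13 libraries and time point 10 the highest, and both are Oxidative. The 2 subunits of the enzyme went different ways at time point 12, where MET5 stood near its highest level and MET10 near its lowest. MET16 (chromosome XVI, peak 877700 to 878004) was the weakest peak per length of the set. It had 93.9 and 38.9 nuclear CPM in Reductive Building, between 20.5 and 68.9 nuclear CPM in Oxidative and between 19.9 and 59.4 nuclear CPM in Reductive Charging libraries. Its highest levels stood in poorly covered Reductive Building libraries, with 197 nuclear CPM at time point 11 and 224 at time point 13.

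MET1 and MET8 encode the enzymes that turn uroporphyrinogen into siroheme, a methyltransferase and a combined dehydrogenase and ferrochelatase. MET8 (chromosome II, peak 649966 to 650421) had 0.363 and 23.0 nuclear CPM at the Reductive Building time points 12 and 14, from 2 and 214 counts. Its Oxidative libraries had 47.4, 134, 97.8, 109 and 116 nuclear CPM. The early Reductive Charging libraries ran from 31.9 to 140.4 nuclear CPM, while that of time point 17 had 0 counts, which allows up to 0.508 nuclear CPM. The MET8 levels therefore parted by time and not by phase label. Of the 8 libraries from time point 11 on, 7 lay below all 10 before it, also where 0 counts are set to the floor of 3 counts. The library of time point 16, with 0 counts and a floor of 325 nuclear CPM, cannot be placed.

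Both well-covered Reductive Building libraries lay below all Oxidative ones for MET8, as they did for 10.3% of nuclear peaks, while 9.55% had both above. Its log2 fold change for Reductive Building minus Oxidative was -3.10 ± 1.59 (SE; 95% interval -6.45 to 0.25; edgeR, adjusted p = 0.378). That fitted value rests on few counts and is no bound. It was -8.04 without time point 14 and -2.13 without time point 12. With all 18 libraries it was -4.11 ± 1.47 (edgeR, adjusted p = 0.715). Of the 2042 nuclear peaks, 67 (3.28%) were lower at time points 12, 14 and 17 than at each of time points 1 to 10, and MET8 was 1 of 13 under 1 nuclear CPM at both 12 and 17. These time points were singled out after the values were seen. Collection was in 2 batches that the labels do not assign to libraries, and their part in this difference was not tested. Nuclear counts at time points 12, 14 and 17 were 5507318, 9304206 and 5901353, within the range of time points 1 to 10. Nuclear peaks at 0 numbered 25 at time point 12, 0 at 14 and 42 at 17, against 0 to 8 at time points 1 to 10, so the libraries of time points 12 and 17, where MET8 had 2 and 0 counts, also stood apart in peaks at 0. The part of that in the MET8 levels was not tested.

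MET1 (chromosome XI, peak 570825 to 571378) had 145 and 44.6 nuclear CPM at the Reductive Building time points 12 and 14. In Oxidative libraries it had 130.2, 137, 76.0, 31.5 and 118 nuclear CPM, against 46.6, 119.8 and 169 nuclear CPM as lowest, median and highest in Reductive Charging. The phases overlapped. In the poorly covered Reductive Building libraries of time points 11 and 13, MET1 had 8.16 and 2.14 nuclear CPM, below all 13 well-covered libraries. MET17 encodes the sulfhydrylase that joins sulfide to O-acetylhomoserine. Its peak (chromosome XII, 731962 to 732593) had 616 and 254 nuclear CPM at the Reductive Building time points 12 and 14. In Oxidative libraries it had 329, 534, 382, 319 and 609 nuclear CPM, against 299, 342 and 504 nuclear CPM as lowest, median and highest in Reductive Charging. MET17 was highest at time point 12 and lowest at time point 14, so the Reductive Building libraries alone spanned its range over the well-covered libraries. The poorly covered library of time point 13 had 1027 nuclear CPM, its highest of all.

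In Oxidative minus Reductive Charging, no member passed the threshold (edgeR, 0 of 10 at an adjusted p under 0.05, and 1 of 10, SUL2, at an unadjusted p under 0.05; DESeq2 0, limma-voom 0), where 2.44% of all 2086 peaks did (51, of which 30 or 1.44% were higher and 21 or 1.01% lower). Of all 2086 peaks, 334 had an unadjusted p under 0.05 by edgeR, while DESeq2 passed 120 and limma-voom 68. The fitted log2 fold change was above 0 for 9 of 10 members and for 1141 of 2042 nuclear peaks. Among the members MET1, at -0.15 ± 0.47 (SE), was the exception. With TMM scaling, which moves the median of nuclear peaks to 0.02 on the log2 scale, MET3 and MET16 fell below 0. Above 0 were then 7 of 10 members and 1065 of 2042 nuclear peaks. The members' median was 0.29, against 0.06 over all nuclear peaks, and 8 of 10 members lay above that median. The intervals were wide for most members: from -0.49 to 0.61 for MET3, from -0.33 to 0.76 for MET17, and from -1.65 to 2.35 for MET8. These intervals are for each peak alone, and differences within them are not excluded here. With all 18 libraries 0 of 2086 peaks passed (edgeR, 58 at an unadjusted p under 0.05; DESeq2 0, limma-voom 0), and no member had an unadjusted p under 0.05.

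In Reductive Building minus Oxidative, no member passed (edgeR, 0 of 10, and 0 at an unadjusted p under 0.05; DESeq2 0, limma-voom 0), where 2.54% of all peaks did (0.767% higher and 1.77% lower). Of all 2086 peaks, 318 had an unadjusted p under 0.05 by edgeR there, while DESeq2 passed 114 and limma-voom 58. The direction was mixed: 4 of 10 members and 994 of 2042 nuclear peaks had fitted values above 0. The members' median was -0.03 against -0.02 over all nuclear peaks. The activation genes MET3 (0.63 ± 0.35, SE) and MET14 (0.52 ± 0.35) had positive log2 fold changes, and the sulfite reductase subunit MET10 had -0.88 ± 0.51, none past the threshold. These values moved with the Reductive Building library left out. Without time point 12 MET14 turned to -0.051 and MET10 was -0.50, and without time point 14 MET14 was 0.93, MET10 was -1.39 and MET3 was 0.36. In Reductive Building minus Reductive Charging, again no member passed (edgeR, 0 of 10; 1, MET14, at an unadjusted p under 0.05; DESeq2 0, limma-voom 0), where 1.39% of all peaks did (0.719% higher and 0.671% lower). Among all 2086 peaks, 287 had an unadjusted p under 0.05 by edgeR, while DESeq2 passed 64 and limma-voom 20. MET3 had 0.69 ± 0.34 (SE) there, or 0.42 without time point 14, and the members' median was 0.34 against 0.04 over all nuclear peaks. These comparisons share libraries and their values are not independent of each other. With all 18 libraries no peak passed by edgeR in either (118 and 194 at an unadjusted p under 0.05). DESeq2 passed 11 and 20 peaks there and limma-voom 6 and 0. No member passed by edgeR, DESeq2 or limma-voom, and MET8 had an unadjusted p of 0.00903 and 0.0180 (edgeR).

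**Figure D3:**
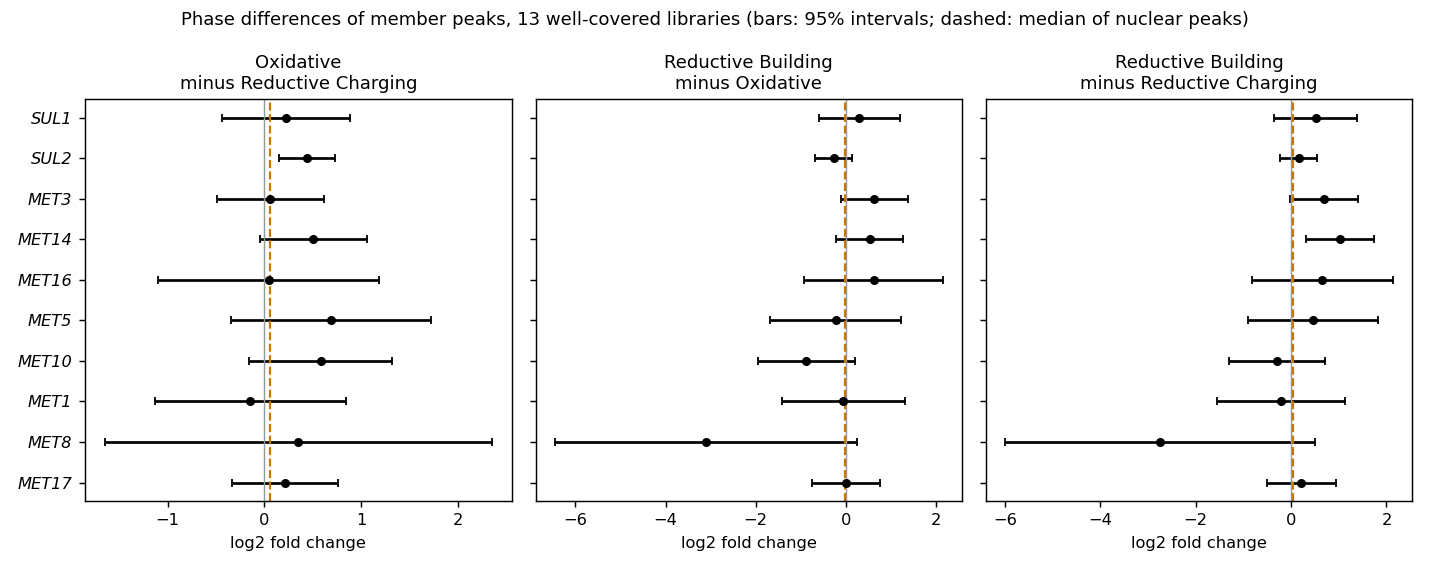
Log2 fold change of each member peak (points) with 95% intervals (bars) in the 3 phase comparisons, each on its own axis, with the median of nuclear peaks dashed. No member passed the adjusted threshold. The intervals restate the unadjusted p of the edgeR test. Those of SUL2 for Oxidative minus Reductive Charging and of MET14 for Reductive Building minus Reductive Charging do not reach 0.

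Members did not share one profile. Across the 13 well-covered libraries, the Pearson correlation of log2(nuclear CPM + 1) between pairs of members had a median of 0.25 over 45 pairs, with 35 above 0. The range was from -0.51 to 0.70. Over all pairs of nuclear peaks the median was 0.04, with 1121071 of 2083861 pairs above 0. The closest pair was SUL1 with MET1 (r = 0.70), followed by SUL2 with MET5 (0.60). MET3 and MET8 were least like the mean of the other members (r = 0.02 for each), while MET14 (0.57) and MET5 (0.55) were most like it. These values describe points that share libraries and depth. Those with MET8 include its 2 and 0 counts at time points 12 and 17, whose part was not tested.

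The summed level of the 10 peaks was 4652 and 3561 nuclear CPM at the Reductive Building time points 12 and 14, against 3910 ± 710 (SD, n = 5) in Oxidative and 3112 ± 339 (SD, n = 6) in Reductive Charging libraries. The Oxidative libraries were uneven, with 3551, 3940, 4360, 2934 and 4764 nuclear CPM at time points 6 to 10. From time point 9 to time point 10, 9 of 10 members were higher, as were 59.5% of nuclear peaks. From time point 8 to time point 9, 2 of 10 were higher, as were 43.6% of nuclear peaks. Time point 12 held the highest level of 4 members (SUL1, MET14, MET16 and MET17), and time point 17 the lowest level of 4 (SUL1, SUL2, MET5 and MET8). The matching shares of all nuclear peaks were not worked out. From time point 10 to 12, 6 of 10 members and 46.1% of nuclear peaks were higher. From time point 14 to 17, 2 of 10 members and 37.5% of nuclear peaks were higher.

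**Figure D4:**
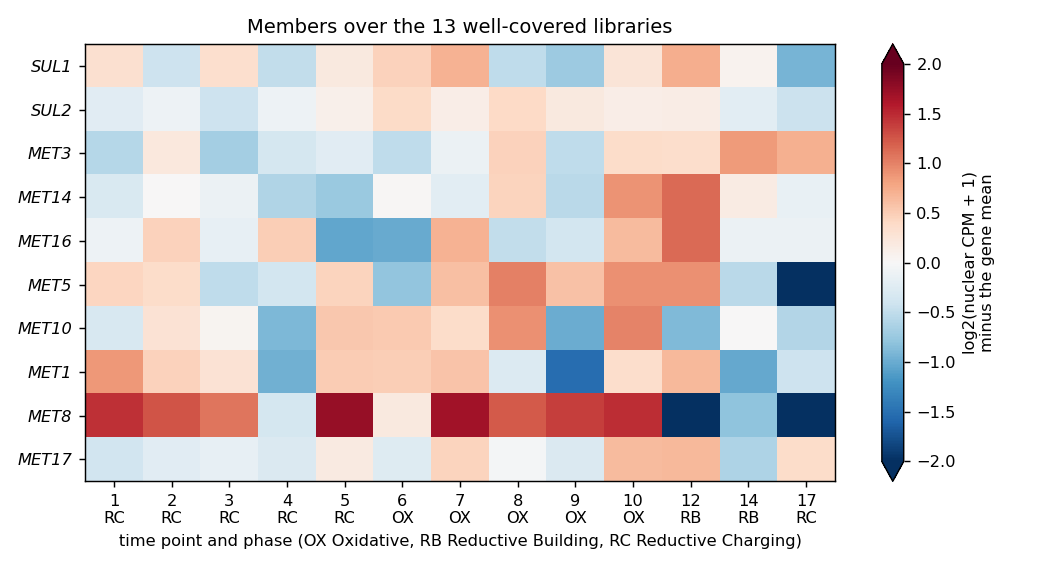
Log2(nuclear CPM + 1) of each member minus its own mean, over the 13 well-covered libraries in time order, with the labelled phase under each time point and colours capped at 2 on either side. Time points 10 and 12 are above the mean for most members, MET8 is far below its mean at time points 12 and 17, and MET5 at time point 17.

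Per kilobase of peak, SUL2 and MET3 were the most open members, with mean levels of 1239 and 1231 nuclear CPM per kb over the 13 libraries. These rank above 88.3% and 88.1% of gene-linked nuclear peaks. MET14 (677 nuclear CPM per kb) and MET17 (645) came next and differed by less than their spread between libraries, which was 298 and 192 (SD, n = 13). The lowest were MET1, MET8 and MET16 with 185, 169 and 152 nuclear CPM per kb, close together beside SDs of 79.5, 110 and 70.4. The members' median was 392, against 316 nuclear CPM per kb for all gene-linked nuclear peaks.

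Likeness to the members' mean profile was ranked among the non-member nuclear peaks linked to a gene with a standard name. The highest was that of FAS2, the alpha subunit of fatty acid synthase (Pearson r = 0.86 over the 13 libraries). Then came the peaks of VHR2 (0.85), HLR1 (0.85), NTC20 with RPS9B (0.84) and NFG1 (0.82). FAS2 had 282 and 206 nuclear CPM at the Reductive Building time points 12 and 14. It had 228, 285, 312, 129.7 and 385 nuclear CPM in Oxidative libraries, low at time point 9 and high at time point 10 like the members' mean. FAS2 was picked for its likeness to that mean over these same libraries, so the shared values follow from the choice. In Reductive Charging it was lowest, with 67.6 nuclear CPM, at time point 17.

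Other genes of sulfur metabolism were described beside the members from a list of 38, of which 26 had a linked peak, each a different one. In Oxidative minus Reductive Charging 2 of the 26 rose and 0 fell, where 1.44% of all peaks were called higher and 1.01% lower. The median log2 fold change was 0.28 over the 26, against 0.06 over all nuclear peaks. MUP1, the high-affinity methionine permease, had 1089 and 649 nuclear CPM at the Reductive Building time points 12 and 14. It had 1775, 1719, 2599, 1915 and 2146 nuclear CPM in Oxidative libraries and 1113 to 1350 nuclear CPM in Reductive Charging. All 5 Oxidative libraries lay above all others of the 13. Of all nuclear peaks, 2.2% had every Oxidative library above every well-covered Reductive Charging library, and 1.76% had the opposite. The share with every Oxidative library also above every well-covered Reductive Building library was not worked out. CYS4, also on the list, was separated from Reductive Charging too. Its lowest Oxidative level was 274 nuclear CPM and its highest well-covered Reductive Charging level 267, and it did not pass (edgeR, adjusted p = 0.232). Among poorly covered libraries, MUP1 had 1820 nuclear CPM at the Reductive Charging time point 18, above the Oxidative values of 1775 and 1719. At time points 11, 13, 15 and 16 it lay below all Oxidative values. MUP1 rose by 0.68 ± 0.15 (log2, SE; edgeR, adjusted p = 0.0386) in Oxidative minus Reductive Charging, and fell by 1.22 (log2, SE 0.22; edgeR, adjusted p = 0.00709) in Reductive Building minus Oxidative.

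MET6, the methionine synthase gene, shares its peak with IES5. It had 1001 and 682 nuclear CPM at the Reductive Building time points 12 and 14, 610.1, 1055, 1153, 805 and 1130.4 nuclear CPM in Oxidative libraries, and 316, 561 and 623 nuclear CPM as lowest, median and highest in Reductive Charging. MET6 rose by 0.84 ± 0.21 (log2, SE; edgeR, adjusted p = 0.0457), while time point 6 lay inside the Reductive Charging range. The last change was in MET30, the F-box protein that marks Met4 with ubiquitin, whose peak is shared with SYG1 and YIL046W-A. MET30 had 1123 and 1492 nuclear CPM at the Reductive Building time points 12 and 14, against 476, 739.9 and 819 nuclear CPM as lowest, median and highest in Reductive Charging. It rose by 0.89 ± 0.21 (log2, SE; edgeR, adjusted p = 0.0467). Its Oxidative libraries ran from 760 to 1099 nuclear CPM. In poorly covered libraries MET30 had 936, 964 and 754 nuclear CPM at the Reductive Building time points 11, 13 and 15. At the Reductive Charging time points 16 and 18 it had 0 and 1100 nuclear CPM, so time point 18 lay above time points 11, 13 and 15.

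In Reductive Building minus Oxidative MUP1 was the 1 of 26 that fell and none rose, where 1.77% of all peaks were called lower and 0.767% higher, and the median was -0.22 against -0.02 over all nuclear peaks. In Reductive Building minus Reductive Charging MET30 was the 1 that rose and none fell, where 0.719% of all peaks were called higher and 0.671% lower, and the median was -0.17 against 0.04. MUP1 kept its fall in Reductive Building when each of the 13 libraries was left out in turn (edgeR, adjusted p up to 0.0424). It was lost with total counts (adjusted p = 0.146), with 16 libraries, leaving out time points 15 and 16 (0.205), with only the phases compared (0.0759) and with all 18 libraries (0.827). The calls of MUP1 and MET6 in Oxidative minus Reductive Charging were lost without any of time points 1, 2, 3, 4, 5, 8, 9 or 10, and that of MET6 also without 7. MUP1 then had a log2 fold change of at least 0.57 and an adjusted p of at most 0.127, and MET6 of at least 0.73 and at most 0.156. The MET30 call was lost without 11 of the 13 libraries, time points 1 to 5, 7 to 10, 12 and 14 (adjusted p up to 0.168, log2 fold change from 0.67 to 1.08). Among 12 other settings the MUP1 rise was lost in 4 (DESeq2 size factors, ribosomal DNA added to the nuclear counts, 16 and 18 libraries) and the MET6 rise in 3 (ribosomal DNA added, 16 and 18 libraries). The MET30 rise was lost in 6 (DESeq2 size factors, total counts, ribosomal DNA added, 16 and 18 libraries, only the phases compared).

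**Figure D5:**
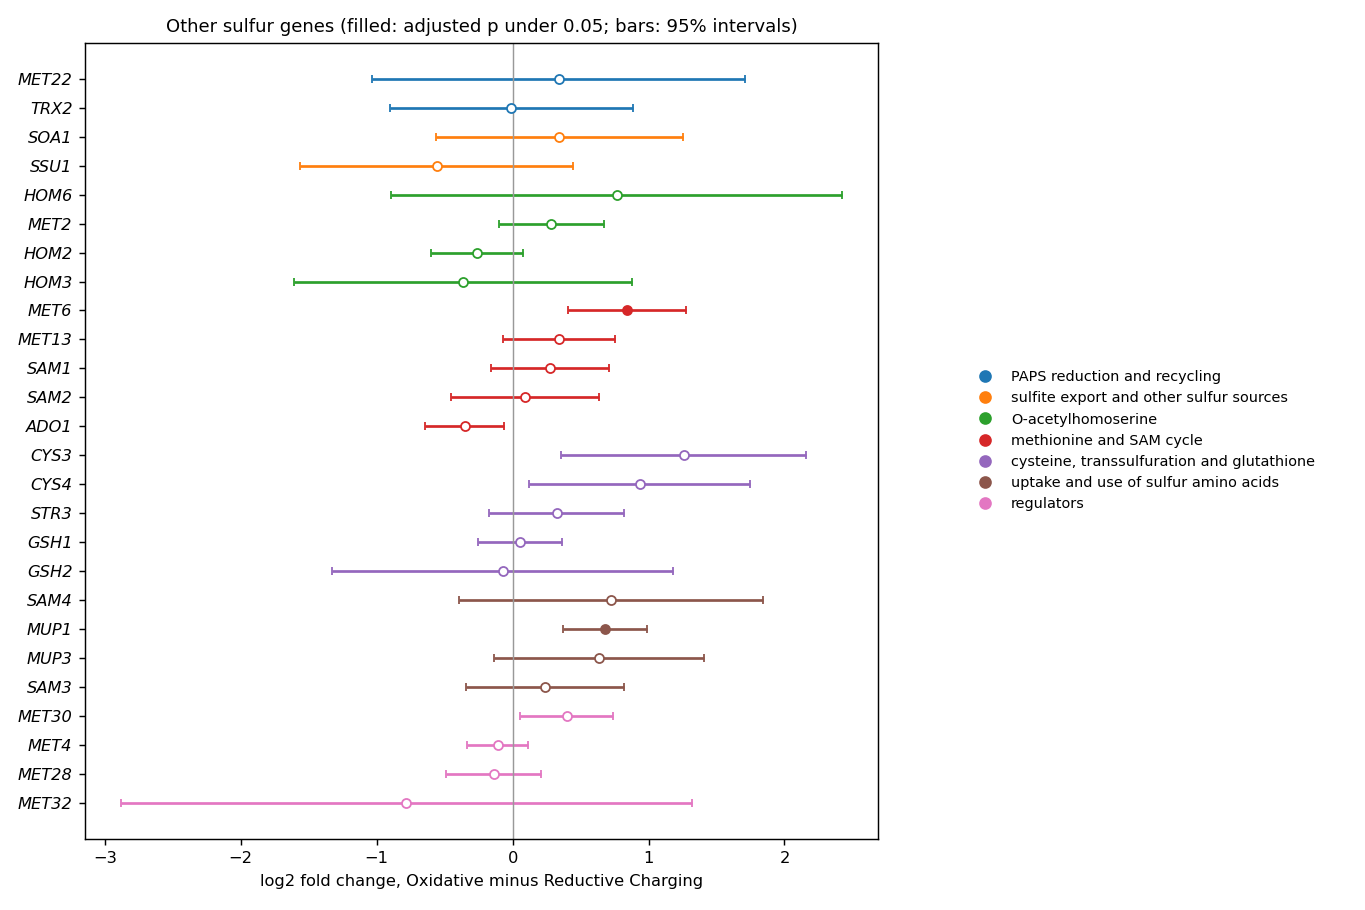
Log2 fold change, Oxidative minus Reductive Charging, with 95% intervals, for the 26 other sulfur genes with a linked peak, coloured by role and filled where the adjusted p is under 0.05. MUP1 and MET6 are filled.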

How the data were processed

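The authors deposited a table of raw counts, with 2086 peaks as rows and the 18 libraries as columns. The build was R64 and the tools included Trimmomatic (read trimming), Bowtie2 (alignment) and MACS2 (peak calling), per the submitters' processing notes. Not given in the sources used here are tool versions, how reads were counted, whether insertion sites were shifted, and whether duplicate or multiply mapping reads were kept, and kept duplicates would make counts less independent. Collection was in 2 batches, which the labels do not assign, so batch and phase cannot be told apart. Peak starts were written 1-based. Counts were scaled to nuclear counts, leaving out 32 mitochondrial and 12 ribosomal DNA peaks. Gene positions came from RefSeq (R64), with strand read from the systematic name.

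Phases were compared with edgeR 4.0.16 in R 4.3.3 (quasi-likelihood test, filterByExpr, robust dispersion, library size set to nuclear counts) over all 2086 peaks, with Benjamini-Hochberg adjustment and a threshold of 0.05. The fit used the 13 libraries in which no more than 10% of the nuclear peaks had 0 counts. Standard errors were taken as the absolute log2 fold change over the square root of the test's F value. The 95% intervals were built from them. DESeq2 1.42.0, limma-voom (limma 3.58.1), other scalings, filters, library sets and linking distances of 250 and 1000 bp, and leaving out each library, were alternatives. The test was also run on simulated counts, drawn independently for each library, for Oxidative minus Reductive Charging only. That simulation held no dependence between neighbouring time points and no batches, so it cannot speak to either. Members, lists, the 13-library set and tests were chosen with earlier results of these data known. Named genes were the members, the other sulfur genes past the threshold and the 5 peaks most like the members' mean profile. These 5 were taken from the non-member peaks linked to a gene with a standard name. No promoter sequence was used here, so a planned motif search was not run.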

Additional observations from a re-analysis of the deposited data

Results flagged for a closer look

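Across 43 groups checked, 4 had a sample far from the rest. For independent groups chance would give about 1 in 20. The groups checked share libraries and members, so their count cannot be set against that rate. In Reductive Charging, time point 16 stood apart with 108 nuclear CPM for SUL2 (next lowest 764), 0 for MET14 (next lowest 264) and 108 for the sum of the 10 members (next lowest 1943). The SUL2 value there is 1 count, and 3 counts in that library correspond to 325 nuclear CPM. In Reductive Building, MET8 at time point 14 had 23.0 nuclear CPM, and the next highest of the 5 libraries had 1.53.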

How the results depend on the processing

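No paired analysis was possible because each time point has 1 library and the labels give the phases no shared replicate numbers or batches. Of 360 member fold changes under 12 other settings 337 kept direction and side of the threshold, 22 turned sign and 1 newly passed. Of 390 with 1 library left out 363 kept both, 26 turned sign and 1 newly passed. Every value that turned sign was short of the threshold, and the cause was not tested. For Oxidative minus Reductive Charging, 51 peaks passed, against 114 with total counts, 0 with ribosomal DNA added to the nuclear counts, 120 with DESeq2's test, 0 with all 18 libraries, 0 with 16 libraries and 0 to 124 with 1 library left out (0 without time point 10, 124 without time point 6). Total counts moved the median of nuclear peaks to 0.52 (log2), passed 101 nuclear peaks as higher and 0 as lower where 30 and 16 passed otherwise, and passed 1 member, SUL2 (0.89, edgeR, adjusted p = 0.0260). MET3 then had -0.0082 with TMM, -0.028 with DESeq2 size factors and -0.0662 with ribosomal DNA, MET16 had -0.021, -0.0483 and -0.0251 in these settings, and MET1 had 0.2965 with total counts, 0.1518 with limma-voom, 0.1702 with 18 and 0.0744 with 16 libraries. With 1 library left out MET3 ran from -0.0799 to 0.2861, MET16 from -0.1831 to 0.2241 and MET1 from -0.3029 to 0.0804.

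For Reductive Building minus Oxidative, 53 peaks passed, against 31 with TMM, 32 with DESeq2 size factors, 0 with total counts, 9 with ribosomal DNA (4 higher, 5 lower, against 16 and 37), 114 with DESeq2's test, 0 with 18 libraries, 12 with 16, 7 with only the phases compared and 16 to 108 with 1 library left out (19 without time point 12, 108 without time point 14). MET17 had 0.055 with TMM, 0.0287 with DESeq2 size factors, 0.4333 with 18 and 0.5286 with 16 libraries. With 1 library left out SUL1 ran from -0.0716 to 0.588, MET14 from -0.051 to 0.9292, MET16 from -0.1612 to 1.109, MET5 from -1.1242 to 0.3264, MET1 from -1.1429 to 0.5546 and MET17 from -0.7738 to 0.5013.

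For Reductive Building minus Reductive Charging, 29 peaks passed, against 15 with total counts (15 higher, 0 lower, against 15 and 14; median of nuclear peaks 0.50), 1 with ribosomal DNA (lower; median -0.16), 64 with DESeq2's test, 0 with 18 libraries, 18 with 16, 12 with only the phases compared and 4 to 134 with 1 library left out (4 without time point 12, 134 without time point 14). DESeq2 size factors gave 11 higher and 16 lower. Between 0 and 1 member passed with 1 library left out. SUL2 had -0.0741 with ribosomal DNA, -0.1942 with 18 and -0.0099 with 16 libraries, MET5 had -0.0477 with 18, MET10 had 0.2703 with total counts and 0.1475 with 16 libraries, and MET17 had -0.0905 with ribosomal DNA and -0.0118 with limma-voom. With 1 library left out SUL2 ran from -0.0306 to 0.3263, MET16 from -0.1158 to 1.1545, MET5 from -0.4361 to 1.0145, MET10 from -0.8069 to 0.0783, MET1 from -1.2887 to 0.4089 and MET17 from -0.5626 to 0.7125.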
